A study of Mus musculus with 12 samples.

Results

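A set of 202 array probes was taken from a time course of Sox2 loss. Their signal relative to a reference RNA had risen at least 2-fold by the end, with 50% or more of that rise within 24 h. They were 202 of 42006 probes on the array, and 1001 other probes rose as far by the end but had gained less than 50% of it at 24 h (called other risers here). The cells were 2TS22C, a mouse embryonic stem (ES) cell line with an inducible Sox2 knockout, in which tetracycline (Tc) shuts off Sox2. All samples were grown in GMEM medium with the cytokine LIF, which maintains ES cells, so LIF and the knockout background were common to the untreated cells too. RNA was taken without Tc (0 h, 2 arrays) and after Tc for 3 h (1 array), 6 h (2), 12 h (1), 24 h (2), 48 h (1), 72 h (2) and 96 h (1). On each of the 12 arrays the sample carried the dye Cy3 and a pooled RNA of mouse cell lines, the same reference throughout, carried Cy5. The treatment follows the sample titles, whose Tc state differs from that in the description field after 0 h.

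The members were chosen from the scanner program's processed signals. For each probe the log2 ratio of sample over reference was averaged by time; the late rise E is the mean of the 72 and 96 h arrays minus the 0 h mean, and a member had E of at least 1, a gain at 24 h of at least 0.5 of E, and detectable signal (in Cy3 on all 72 and 96 h arrays and in Cy5 on all 12). Values of 0, 24, 72 and 96 h therefore chose the members and are given below as a description, with no test. The arrays of 3, 6, 12 and 48 h entered the choice through the Cy5 detection condition alone and their ratios did not; tests compare only those 5 arrays with each other, with a spread taken from all replicated times.

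Sox2 is a DNA-binding protein that acts with Oct3/4 on enhancers of genes active in pluripotent cells, and ES cells that lose it leave self-renewal. The files do not pair probes with genes, so the probes are identified by name and by their 60 bases, and neither Sox2 itself nor markers of ES cells or other cell types could be read.

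The following 12 probes carry the results. The first 6 are among the 8 members with the largest rises from 3 and 6 h to 12 h, and the next 6 are among the members with the largest late rise or the largest rise by 48 h. Each is printed 5′ to 3′ as the scanner files give it, with no base singled out by capitals.
Z00060230-1: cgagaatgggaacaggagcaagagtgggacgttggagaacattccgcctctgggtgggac
Z00047989-1: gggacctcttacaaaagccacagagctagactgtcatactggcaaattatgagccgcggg
Z00050690-1: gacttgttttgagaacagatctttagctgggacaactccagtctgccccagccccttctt
Z00034373-1: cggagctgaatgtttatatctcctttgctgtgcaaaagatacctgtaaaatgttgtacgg
Z00015046-1: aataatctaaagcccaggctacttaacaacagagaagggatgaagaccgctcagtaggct
Z00034384-1: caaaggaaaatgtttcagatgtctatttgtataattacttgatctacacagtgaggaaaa
Z00006481-1: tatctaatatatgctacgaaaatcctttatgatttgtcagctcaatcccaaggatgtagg
Z00036231-1: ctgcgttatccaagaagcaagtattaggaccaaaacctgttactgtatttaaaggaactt
Z00052205-1: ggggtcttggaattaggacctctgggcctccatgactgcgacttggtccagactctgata
Z00026142-1: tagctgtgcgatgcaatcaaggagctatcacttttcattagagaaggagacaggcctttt
Z00052641-1: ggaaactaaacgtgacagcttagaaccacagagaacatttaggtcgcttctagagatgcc
Z00072779-1: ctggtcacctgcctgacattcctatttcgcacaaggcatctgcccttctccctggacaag

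Several members read overlapping stretches of sequence and are not independent of each other. With a minimum of 20 identical bases on the same strand, 10 members formed 5 pairs. The pairs below are shown because part of their sequence is measured by separate probes, and they share the bases in capitals.
Z00050662-1: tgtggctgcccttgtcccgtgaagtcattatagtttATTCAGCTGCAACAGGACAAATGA
Z00062265-1: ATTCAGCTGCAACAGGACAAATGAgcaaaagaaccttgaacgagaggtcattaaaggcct
Z00027992-1: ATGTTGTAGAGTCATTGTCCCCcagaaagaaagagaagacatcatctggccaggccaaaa
Z00055107-1: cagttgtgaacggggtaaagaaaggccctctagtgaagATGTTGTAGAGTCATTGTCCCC
Z00035369-1: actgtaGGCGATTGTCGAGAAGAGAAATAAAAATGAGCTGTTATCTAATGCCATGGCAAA
Z00063311-1: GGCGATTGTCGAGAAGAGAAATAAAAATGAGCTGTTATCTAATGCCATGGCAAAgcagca

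On the scale that chose them, E ran from 1.00 to 2.47 log2 units over the 202 members, with a median of 1.24 and quartiles of 1.10 and 1.48. For 44 members it was at least 1.5 and for 8 at least 2. The gain at 24 h was 50.2% to 168% of E, with a median of 61.6%, and for 63 members it was at least 75% of E. For 13 members the 24 h mean was as high as the late mean or higher. The limits cut through a continuum: the 3 probes just under the limit on E stood at 0.991, 0.992 and 0.998 and the 3 just above it at 1.00, 1.00 and 1.01, and around the limit at 24 h the nearest values were 49.7% to 49.9% outside and 50.2% to 50.4% inside.

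Levels and differences from here on are log2 ratios after background correction with an offset of 50 and loess normalization, a scale that draws in the changes of dim probes; the median late rise of the members is 1.05 on it. Measured from the 0 h mean, the median member stood higher by 0.02 (3 h), 0.10 and 0.10 (6 h), 0.27 (12 h), 0.64 and 0.64 (24 h), 0.97 (48 h), 1.04 and 1.01 (72 h) and 1.13 (96 h). Most of the gain lay between 6 and 48 h. The other risers, set apart by the rule through their lower share at 24 h, followed a later course. Their medians were 0.08 (12 h), 0.23 and 0.21 (24 h), 0.68 (48 h), 1.08 and 1.03 (72 h) and 1.34 (96 h). The median over all 41755 probes in the fit stayed within 0.01 of 0 on all 12 arrays. Loess centres the ratios of each array, so the normalization held this median near 0.

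**Figure D1:**
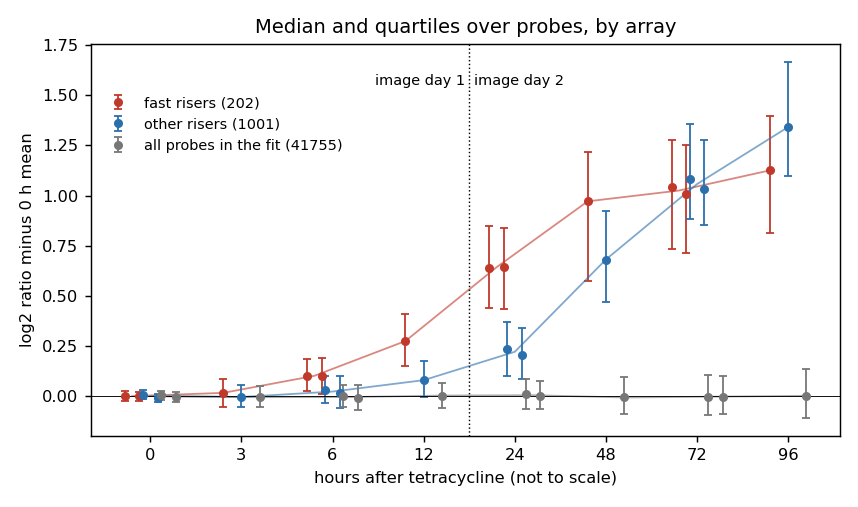
Median (points) and quartiles (bars) over probes of the log2 ratio minus the 0 h mean, 1 point per array, for the 202 fast risers, the 1001 other risers and all probes in the fit; lines join the means of a time's medians, and hours are spaced evenly, not to scale. The fast risers reach a median of 0.64 at 24 h, where the other risers are at 0.23 and 0.21, a gap that follows from the rule. The dotted line marks the change of image analysis day.

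The files show 2 days of image analysis: all arrays of 0 to 12 h were read on the first and all of 24 to 96 h on the second, so a change between 12 and 24 h cannot be told apart from one of day. The median signal above background was 97.0 to 120 units in Cy3 and 229 to 283 in Cy5 on the first day, and 122 to 221 and 335 to 429 on the second. Neither 3, 12, 48 nor 96 h has a second array; tests take their spread from the replicated times. Separate cultures are not stated for the replicates, and p-values therefore cover only the spread seen among these samples, which may be technical.

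The first comparison asked whether members were already rising by 12 h on arrays whose ratios the rule did not use, all read on 1 day. At 12 h 78 of the 202 members (38.6%) were higher than the mean of 3 and 6 h, 1 was lower, and 123 did not pass the test (limma, adjusted p under 0.05 over all 41627 probes). Over all probes 1.48% were called higher and 1.56% lower. Of the other risers 43 of 1000 were called higher (4.30%). The median difference was 0.22 for the members, 0.07 for the other risers and 0.01 for all probes, and 188 of the 202 members lay above 0 against 54.1% of all probes. The differences were small, the highest being 0.70, so no member reached 2-fold over these hours. The median standard error of a member's difference was 0.06.

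The 12 h calls named below come from the ratios, and with Cy3 alone no member passed that test. Z00060230-1 had the largest rise by 12 h. Its log2 ratios were -0.23 and -0.23 (0 h), -0.19 (3 h), -0.06 and -0.15 (6 h), 0.55 (12 h), 1.09 and 1.10 (24 h), 1.16 (48 h), 0.97 and 0.94 (72 h) and 1.00 (96 h). It was flat near the reference-pool level through 6 h, rose by 0.70 ± 0.05 (SE; adjusted p = 8.49e-05) at 12 h and was already at its final level at 24 h. Z00034373-1, which is among the largest by late rise, by 12 h and by 48 h alike, stood at 0.39 and 0.43 (0 h), 0.52 (3 h), 0.79 and 0.80 (6 h), 1.34 (12 h), 1.97 and 1.97 (24 h), 2.53 (48 h), 2.22 and 2.19 (72 h) and 2.33 (96 h). Both 6 h arrays lay above 3 h, the 12 h array above both, and the maximum fell at 48 h. Its rise was 0.69 ± 0.05 (SE; adjusted p = 5.45e-05) at 12 h and 1.88 ± 0.05 (SE; adjusted p = 1.16e-08) at 48 h, each against 3 and 6 h.

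Z00050690-1 started below the reference pool and turned back after 48 h, with -1.21 and -1.24 (0 h), -1.19 (3 h), -0.91 and -0.92 (6 h), -0.36 (12 h), -0.11 and -0.20 (24 h), 0.27 (48 h), -0.17 and -0.27 (72 h) and -0.41 (96 h). The rise to 12 h was 0.69 ± 0.06 (SE; adjusted p = 0.000158), and the 72 and 96 h arrays all lay below the 48 h array. Z00015046-1 was the member furthest past its late level at 24 h, 168% of E, with 0.48 and 0.50 (0 h), 0.42 (3 h), 0.70 and 0.66 (6 h), 1.22 (12 h), 1.94 and 1.96 (24 h), 1.51 (48 h), 1.38 and 1.48 (72 h) and 1.43 (96 h). Its 24 h arrays lay above every other array, and it too had passed the test at 12 h, by 0.67 ± 0.05 (SE; adjusted p = 0.000142). Z00047989-1 was less precise: its values were 1.00 and 1.13 (0 h), 1.24 (3 h), 1.58 and 1.48 (6 h), 2.08 (12 h), 2.42 and 2.51 (24 h), 2.81 (48 h), 3.00 and 2.50 (72 h) and 2.36 (96 h), its 72 h arrays were 0.51 apart, and its rise at 12 h was 0.70 ± 0.15 (SE; adjusted p = 0.0359). That call was lost without any one array of 0, 3, 6 or 24 h (adjusted p of 0.0595 to 0.173), and over all alternatives its adjusted p ran from 0.000662 to 0.386.

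Only 2 members passed the test between 3 and 6 h, where 0.06% of all probes were called higher; 49 members (24.3%) were higher and 0 lower at an unadjusted p under 0.05, against 3.99% and 4.04% of all probes. The 2 called were named for that result after their values were seen. Z00072817-1 stood at 0.56 and 0.57 (0 h), 0.62 (3 h), 1.09 and 1.10 (6 h), 1.44 (12 h), 1.37 and 1.45 (24 h), 1.63 (48 h), 1.96 and 1.85 (72 h) and 2.03 (96 h), and its step from 3 to 6 h was 0.48 ± 0.06 (SE; adjusted p = 0.0294). All later arrays lay above those of 6 h. Z00034384-1 had -1.14 and -1.17 (0 h), -1.12 (3 h), -0.65 and -0.73 (6 h), -0.28 (12 h), 0.03 and 0.09 (24 h), 0.34 (48 h), 0.54 and 0.49 (72 h) and 0.66 (96 h), with a step of 0.43 ± 0.06 (SE; adjusted p = 0.0301) and no overlap between the 3 h array and the 6 h arrays. Neither call was kept with the processed signals, with Cy3 alone or in any fit without a 0, 6 or 24 h array, in each of which 0 members passed.

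The single member called lower at 12 h, also named after its values were seen, was Z00021260-1, with -0.73 and -0.68 (0 h), -0.60 (3 h), -0.48 and -0.53 (6 h), -0.80 (12 h), -0.39 and -0.38 (24 h), -0.06 (48 h), 0.05 and 0.06 (72 h) and 0.10 (96 h). Its 12 h array lay below all earlier arrays and all later ones, and the difference was -0.25 ± 0.05 (SE; adjusted p = 0.0261). The call was lost without the offset, with the processed signals, the series table or only the 5 arrays of 3, 6, 12 and 48 h, without the first 6 h array and at an adjusted p under 0.01. With Cy3 alone the difference was 0.050.

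The 12 h count depended on the signal used. It was 22 on processed signals, 27 without the offset, 27 in the deposited series table and 39 without the 3 h array, with 0.295%, 0.315%, 0.498% and 0.552% of all probes called higher in those fits. With Cy3 alone 0 members and 0.0384% of all probes passed with limma (63 members higher and 1 lower at an unadjusted p under 0.05). In that channel 174 of the 202 members lay above 0, with a median of 0.14 against 6.7e-05 over all probes. The shares of all probes above 0 or at an unadjusted p under 0.05 were not counted there, so the 174 and 63 lack a background. In Cy5 alone, which carries the reference, the median member at 12 h differed from 3 and 6 h by -0.04, against -0.01 over all probes.

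The second comparison asked how far members had come by 48 h, again from ratios the rule did not use, but across the change of day. The rule also set arrays of the second day against the 0 h arrays of the first. A shift between days would therefore enter both the choice of members and this comparison, and cannot be told apart from a change with time. At 48 h 181 of the 202 members were higher than at 3 and 6 h, 0 were lower (also 0 at an unadjusted p under 0.05) and 21 did not pass, against 15.5% of all 41636 probes called higher. The median difference was 0.90 log2 units (quartiles 0.57 and 1.16). A call with a rise of at least 2-fold was made for 78 of the 202 members. The same held for 169 of 999 other risers and 306 of all 41636 probes. Of the other risers 935 of 999 passed, with a smaller median of 0.66. Their share that passed, 93.6%, was above the 89.6% of the members. The count with Cy3 alone was 154, and in the other alternatives run it was 166 to 186. Over all probes 6.24% were called higher with Cy3 alone and 12.1% to 16.5% in the other refits. In single channels, the median member at 48 h differed from 3 and 6 h by 0.72 in Cy3 alone and by -0.10 in Cy5 alone, which carries the reference. Over all probes the medians were 0.01 and -0.03.

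**Figure D2:**
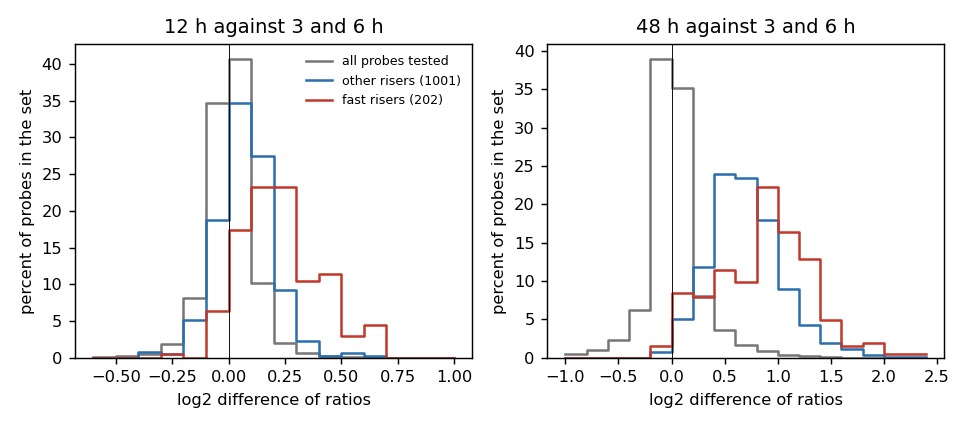
Percent of probes in each set by their log2 difference of ratios, for 12 h (left) and 48 h (right) against the mean of 3 and 6 h, in the 202 fast risers, the other risers and all probes tested. At 12 h the fast risers have a median of 0.22 and the other risers 0.07; at 48 h the medians are 0.90 and 0.66.

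Members with a large rise by 48 h started from very different levels. Z00006481-1 was above the reference pool throughout, with 0.53 and 0.50 (0 h), 0.67 (3 h), 0.63 and 0.64 (6 h), 0.75 (12 h), 1.57 and 1.53 (24 h), 2.41 (48 h), 2.78 and 2.94 (72 h) and 2.86 (96 h). It did not pass at 12 h, where the difference was 0.09 ± 0.06 (SE; adjusted p = 0.623), and most of its gain lay between 12 and 48 h. Z00036231-1 was far below the pool at first, with -2.43 and -2.42 (0 h), -2.52 (3 h), -2.41 and -2.40 (6 h), -2.14 (12 h), -1.43 and -1.42 (24 h), -0.64 (48 h), -0.47 and -0.56 (72 h) and -0.26 (96 h). It did not reach the level of the pool on any array although it had risen by 1.82 ± 0.05 (SE; adjusted p = 1.80e-08) at 48 h. Z00052205-1 was highest on the 96 h array, with 0.31 and 0.24 (0 h), 0.40 (3 h), 0.55 and 0.46 (6 h), 0.75 (12 h), 1.36 and 1.44 (24 h), 2.04 (48 h), 2.22 and 2.23 (72 h) and 2.62 (96 h). Its differences were 0.30 ± 0.06 (SE; adjusted p = 0.0246) at 12 h and 1.59 ± 0.06 (SE; adjusted p = 7.77e-08) at 48 h.

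The largest rise of any member by 48 h was that of Z00064311-1, 2.33 ± 0.08 (SE; adjusted p = 5.95e-08). Its log2 ratios were 0.91 and 0.86 (0 h), 0.93 (3 h), 1.08 and 1.01 (6 h), 1.48 (12 h), 2.26 and 2.42 (24 h), 3.32 (48 h), 3.12 and 2.93 (72 h) and 3.14 (96 h), with a maximum at 48 h that the 72 and 96 h arrays did not reach. The second largest, Z00004794-1, rose by 2.11 ± 0.08 (SE; adjusted p = 8.14e-08) from a level of -3.26 and -3.28 on the 0 h arrays, far below the pool.

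**Figure D3:**
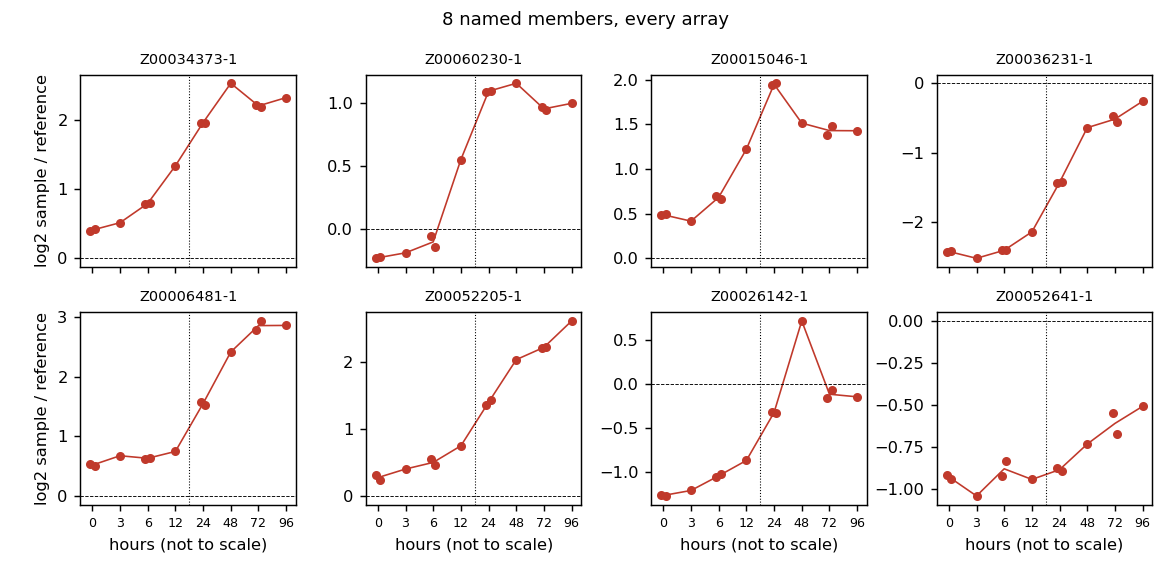
Log2 ratio of sample over reference on every array for 8 named members (points; the line joins the time means, the dashed line is the level of the reference pool and the dotted line the change of day), with hours spaced evenly. The upper left panels rise by 12 h, Z00015046-1 peaks at 24 h, Z00026142-1 peaks at 48 h, and Z00052641-1 changes by 0.35 on this scale.

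Courses diverged after 24 h. For 170 members both 24 h arrays lay below all 72 and 96 h arrays, so most were higher late than at 24 h. The highest time mean fell at 96 h for 129 members, at 72 h for 26 and at 48 h for 42; among the other risers it fell at 96 h for 847, at 72 h for 138 and at 48 h for 16. On the 48 h array 38 members lay above all 72 and 96 h arrays and 98 below all of them. These counts rest on a single 48 h array and on 72 and 96 h arrays that chose the members, and were not tested.

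Z00026142-1 was the clearest of those that turned back. It had -1.26 and -1.27 (0 h), -1.21 (3 h), -1.06 and -1.03 (6 h), -0.87 (12 h), -0.32 and -0.34 (24 h), 0.71 (48 h), -0.16 and -0.07 (72 h) and -0.15 (96 h). The 48 h array was the only one above the reference pool, and the late arrays were 0.79 to 0.88 below it. Its rise at 48 h was 1.84 ± 0.05 (SE; adjusted p = 1.87e-08). In all, 6 members stood at least 0.5 above their late mean on the 48 h array.

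Of the 174 members with a late rise of at least 0.5 on the normalized scale, the median had gained 1.73% of it by 3 h, 9.76% by 6 h, 26.7% by 12 h, 57.8% by 24 h and 88.7% by 48 h. At 12 h 20 of the 174 had reached 50%. For 976 other risers the same medians were -0.31%, 2.06%, 6.77%, 18.1% and 58.5%, and 7 had reached 50% at 12 h. The rule divided the sets by the share at 24 h, so the gap at that time was set by the choice. The shares at the other times also rest on the 0, 72 and 96 h arrays, which chose the members, and were not tested. The 78 members that passed the 12 h test had a median of 72.3% of E at 24 h on the scale that chose them, against 59.1% for the other 124, and 75 of the 78 also passed at 48 h. The values behind these 24 h shares chose the members, and the difference was not tested.

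**Figure D4:**
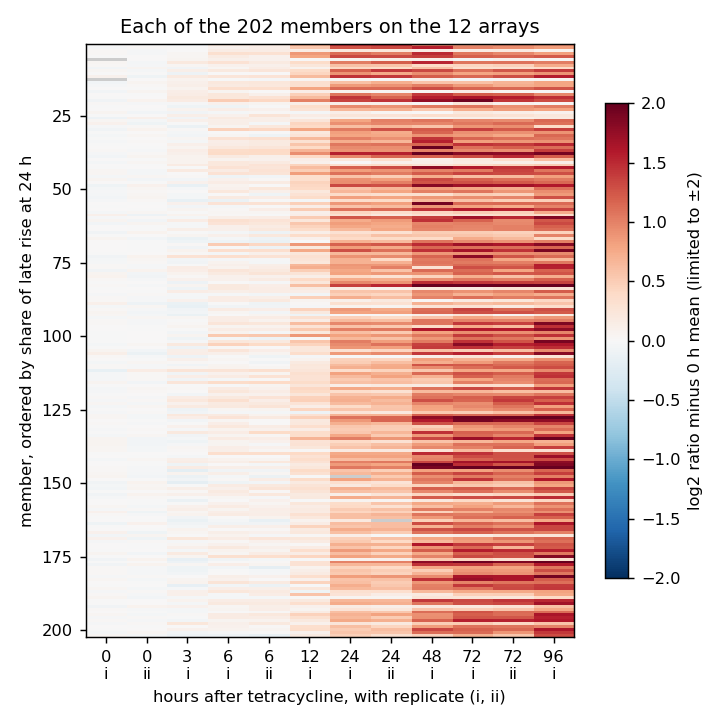
Log2 ratio minus the 0 h mean for each of the 202 members (rows, ordered with the largest share of the late rise at 24 h on top) on the 12 arrays (columns), with colours limited to 2 log2 units either way and grey for spots left out. The 12 h column is pale red in most rows, the step to 24 h crosses the change of day, and pale rows are members whose rise is small on this scale.

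Members lay on both sides of the reference pool before and after Tc. At 0 h 83 of the 202 (41.1%) lay above the pool, with a median level of -0.28, and at 72 and 96 h 132 did (65.3%), with a median of 0.57. Over all probes in the fit the shares were 47.4% and 47.1%. The 0 h and late values chose the members, and these shares were not tested. The level crossed that of the pool for 49 members. The lowest 25 began at least 2 log2 units below the pool, and 81 ended at least 1 above it. The other risers covered a like range, with a median of -0.30 at 0 h and 0.76 late. In a culture, more cells of a kind and more RNA per cell cannot be told apart.

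Some members had weak signals at 0 h. In Cy3, 181 members were well above background on all 12 arrays and 21 were not. On the scale that chose them the 21 had a median E of 1.18, close to the 1.25 of the 181, but after normexp correction it was 0.24 against 1.09. At 48 h 176 of the 181 passed the test, and of the 21 members 16 did not. At 12 h 77 of the 181 and 1 of the 21 passed. Z00052641-1, among the 21, had E of 2.07 on processed signals and Cy3 well above background on 7 of 12 arrays. Its normalized ratios were -0.92 and -0.94 (0 h), -1.04 (3 h), -0.93 and -0.84 (6 h), -0.94 (12 h), -0.88 and -0.89 (24 h), -0.73 (48 h), -0.55 and -0.67 (72 h) and -0.51 (96 h). Its difference at 48 h was 0.23 ± 0.06 (SE; adjusted p = 0.0201), which put it among the 5 of the 21 that passed.

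The largest E of all, 2.47, came from a single spot. Z00072779-1 read -5.35 on the first 0 h array, from a spot the scanner program flagged as non-uniform, and -0.40 on the second; on the other 10 arrays it lay between -0.48 and -0.27. Z00073659-1 likewise read -2.93 on the first 0 h array from a flagged spot and 0.18 on the second. With flagged spots left out the rule found 201 members, 200 of them shared, and these probes were no longer among them. Without them the counts were 78 of 200 at 12 h and 181 of 200 at 48 h. On the scale that chose them, 8 members had gained 50% of E by 3 h, these included, and 7 of the 8 did not pass at 48 h.

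Membership itself moved with the arrays. Leaving out each 0, 24 or 72 h array in turn, 125 of the 202 stayed members in all 6 cases, and of these 64 passed at 12 h and 119 at 48 h. Under the rule on normexp and loess ratios 116 probes were members, 102 of them shared with the 202.

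Members that overlap each other had courses that were alike or differed in size. Z00050662-1 and Z00062265-1 share 24 bases, but E was 1.22 and 2.00, and the rises at 48 h were 1.22 ± 0.06 and 1.88 ± 0.07 (SE; adjusted p = 2.40e-07 and 5.95e-08). Their gains at 24 h were 72.3% and 81.4% of E. The rule chose members by this share, so high values of it follow from the choice. Z00035369-1 and Z00063311-1 share 54 bases and nearly coincided, with E of 1.57 and 1.58 and rises at 12 h of 0.45 ± 0.08 and 0.48 ± 0.05 (SE; adjusted p = 0.0175 and 0.000545). Z00027992-1 and Z00055107-1 share 22 bases, had E of 1.12 and 1.22, and did not pass at 12 h, where the differences were 0.01 ± 0.09 and 0.14 ± 0.09 (SE; adjusted p = 0.972 and 0.631).

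In all, 4 members also overlapped 5 probes outside the set. Z00064777-1 and Z00063877-1 are the same 60 bases under 2 names, and E was 1.16 for the first and 0.93 for the second, which falls under the limit. Their rises at 12 h were 0.42 ± 0.05 and 0.33 ± 0.05 (SE; adjusted p = 0.00158 and 0.00800). Z00035605-1, with E of 1.88 and 101% of it at 24 h, shares 44 bases with Z00014872-1, which had E of 1.78 and 103% at 24 h but did not meet the signal condition. Z00072996-1, at 51.7% of E at 24 h, overlaps probes at 42.5% and 41.1%, which count among the other risers. Z00070586-1, with E of 1.17, shares 56 bases with Z00070583-1, whose E of 0.99 is under the limit. All 9 of these probes, 4 members and 5 others, were higher at 48 h than at 3 and 6 h by the same test. The limits or the signal condition placed them on different sides.

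**Figure D5:**
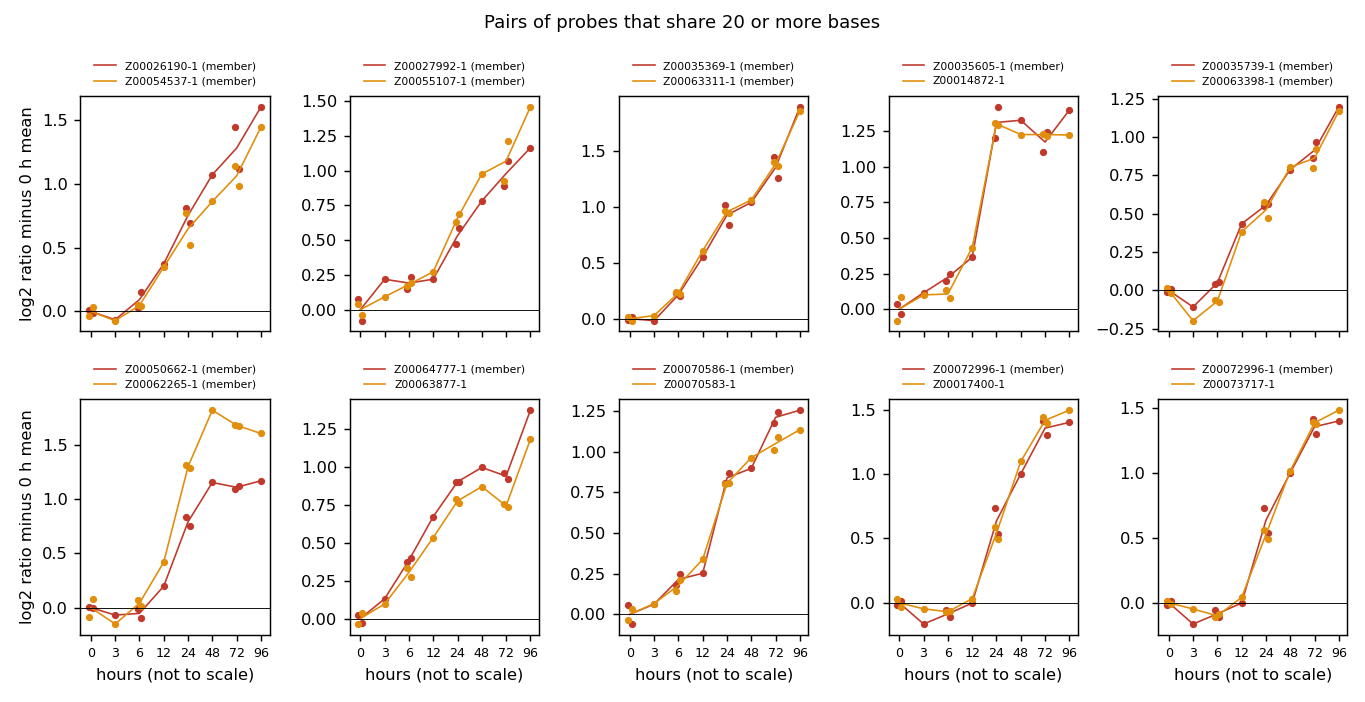
Log2 ratio minus the 0 h mean for the 10 pairs of a member and a probe that shares 20 or more bases with it (points are arrays, lines join time means, hours spaced evenly; members are marked in the legends). The courses run together in most panels, and Z00062265-1 rises further than Z00050662-1.

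The median GC content was 43.3% for the members and for all probes, with quartiles of 36.7% and 45.0% for the members and 38.3% and 48.3% for all probes. For the other risers it was 41.7%, with quartiles of 36.7% and 45.0%. The letters AATAAA or ATTAAA, which include the usual signal for polyadenylation near a transcript's end, were searched on the printed strand. They stood in 46 members (22.8%), in 16.0% of the other risers and in 9.73% of all probes. AATAAA alone was in 14.9% of members and 6.75% of all probes, and on the opposite strand in 4.46% and 3.42%. ATTTA, the core of AU-rich elements, was in 6.93% and 7.27%. These shares are a description and were not tested.

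Of the 42006 probes, 290 matched a RefSeq promoter window or miRNA hairpin of GRCm38.p6 over all 60 bases on either strand, and 1 of these was a member, Z00070005-1. It lies in the window chr19:5970057-5970356 at the start of Gm31719 and on the strand opposite to that gene, so the match does not assign it to the gene. Its log2 ratios were -0.01 and 0.04 (0 h), 0.13 (3 h), 0.19 and 0.23 (6 h), 0.33 (12 h), 0.86 and 0.92 (24 h), 1.03 (48 h), 0.87 and 0.74 (72 h) and 0.80 (96 h), and its differences were 0.16 ± 0.06 (SE; adjusted p = 0.259) at 12 h and 0.86 ± 0.06 (SE; adjusted p = 3.49e-06) at 48 h.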

How the data were processed

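Total RNA of 12 samples was hybridised to Agilent 60-base arrays of 42006 probes, sample in Cy3 and reference in Cy5, with no dye swap, per the labels. The deposited scanner files hold intensity per spot, which per the file headers came from version 7.5.1 of Agilent Feature Extraction; that program had corrected the processed signals for background and dye. The authors' deposited series table holds log10 values; after centring each probe, it matched the log ratio of the processed signals within 0.01 log2 units for 87.5% of probes. The making of the rest is not stated.

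The membership rule was applied to processed signals, averaged over spots of a probe. For tests, mean signals were corrected by normexp (offset 50) and loess with control spots at weight 0, flagged spots were left out, and probes well above background in Cy3 on at least 2 arrays were kept (41755, all 202 members among them). One limma fit (limma 3.58.1, R 4.3.3) of the 8 times gave each comparison with 4 residual degrees of freedom and Benjamini-Hochberg adjustment over all probes; calls use an adjusted p under 0.05. The spread of the replicated 0, 24 and 72 h arrays enters every test. The number of arrays limits the precision. The script was tested on simulated data.

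Members and comparisons were chosen with earlier results of these data known. Named probes were the 12 largest by E, the 8 largest rises to 12 h and the 6 largest to 48 h among called members, plus the values nearest each limit; the text takes some of each. The planned gene lists, cell type markers and check of Sox2 were not run, since probes carry no gene names. No control or sample was dropped. Same-numbered arrays did not deviate together (correlations of -0.04 to 0.16), so numbers were not taken to pair samples.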

Additional observations from a re-analysis of the deposited data

How the results depend on the processing

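The rise by 12 h kept its direction in the median under all alternatives run, but its count did not: it was 78 as reported, 27 with an offset of 0, 22 with processed signals, 27 with the series table, 46 with median centring, 0 with Cy3 alone and 35 at an adjusted p under 0.01, and 39 to 84 when single arrays were left out (39 without the 3 h array, an alternative chosen after seeing the data). The 48 h count was 154 to 186 over the alternatives, and 178 to 184 without single arrays. The share of all probes called higher moved too, from 6.24% with Cy3 alone to 16.5% without a 72 h array. The 2 members called between 3 and 6 h became 0 with an offset of 0, processed signals, the series table, Cy3 alone, median centring, only the 5 arrays of 3, 6, 12 and 48 h, the replicate block, or an adjusted p under 0.01, and 0 to 3 without single arrays. The single member called lower at 12 h, Z00021260-1 (-0.25), was at 0.050 with Cy3 alone, and the cause was not tested. With the replicate number as a block the 12 h and 48 h counts were 74 and 182.

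The rule found 116 members with normexp and loess ratios, 96 with Cy3 alone, 44 with E of at least 1.5, 115 and 319 with a 24 h gain of at least 0.6 and 0.4 of E, and 189 to 226 without single arrays. Alternatives on flagged spots (201 members), on normexp without offset (193) and on members near background were added after seeing the data. Signal over background limits the 21 members with weak Cy3.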
